A study of Mus musculus with 6 samples.

Results

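The genes described are the myofibroblast and vascular smooth muscle genes of healing tendon: 8 contractile genes (Acta2, Tagln, Myh11, Cnn1, Actg2, Lmod1, Myocd and Mylk) and 2 mural markers, Rgs5 and Notch3, set against them. They were taken by symbol and not by a cut on their values, though with earlier results of these data known. They are 10 of the 53819 genes listed. All 10 were among the 17496 genes tested. RNA was sequenced from single flexor digitorum longus (FDL) tendons of 3 DTRScxLin and 3 WT mice, each tendon having been cut and repaired, at D28 post-surgery. DTRScxLin mice were Scx-Cre+; DTR F/+ and WT mice were Scx-Cre- littermates that carried the same DTR F/+ allele, in which the diphtheria toxin receptor needs Cre to be expressed. Both groups were 10 to 12 weeks old at surgery, both sexes were used, and both groups received DT in 5 daily injections from D14 to D18. The Cre is driven by Scx (Scleraxis) and acts in every cell with a history of Scx expression. The cells targeted are thus the whole lineage, whether or not they expressed Scx on the day of injection. DT was injected locally, and the paper names as a limit that the efficiency of depletion could not be quantified. By the paper's timing, the RNA was taken 10 days after the last injection. The sample titles instead count D28 from depletion, and the paper's timing was used here. The question was how the levels of contractile and mural transcripts compared between tendons healed with and without depletion of this lineage.

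Myofibroblasts are fibroblasts that build actin stress fibres and are identified in healing tendon by alpha smooth muscle actin, the product of Acta2. Vascular smooth muscle cells use the same actin and the same actin-binding proteins, and add smooth muscle myosin heavy chain, leiomodin and the coactivator myocardin, which works with serum response factor (SRF) to turn the contractile genes on. Pericytes and smooth muscle cells together form the mural layer of vessels, where Rgs5, a regulator of G protein signalling, and the receptor Notch3 are expressed. In whole tendon, a lower transcript level from fewer cells of a type cannot be told apart from less RNA per cell, and the Acta2 of myofibroblasts cannot be told apart from that of vessels.

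The libraries held from 42744138 to 48854310 counts on genes. The labels name both a TruSeq Stranded and a SMARTER kit, and the strand setting of the counting was not given in the sources used here. Defining markers of smooth muscle (Myh11), pericytes (Rgs5), endothelium and tendon (Scx, Tnmd) were measured in all 6 libraries. Transcripts of tissue around the tendon varied among libraries. The 12 skeletal muscle markers took from 1.602 to 2.21% of the counts of the WT libraries, and 0.275, 1.95 and 0.528% of those of DTRScxLin replicates 1 to 3. The 7 keratinocyte markers took from 0.00208 to 0.256% in WT and from 0.000997 to 0.0233% in DTRScxLin. Xist was counted 49303 times in WT replicate 2, 53828 times in DTRScxLin replicate 2 and 54082 times in DTRScxLin replicate 3, and at most 4 times elsewhere. The Y-linked Ddx3y had 0 counts in those 3 libraries and from 3341 to 4982 in the other 3, so WT held 1 Xist library of 3 and DTRScxLin held 2 of 3. The sample labels do not give the sex.

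Acta2 and Actg2, the smooth muscle alpha and gamma actins, have similar coding sequences, and a read that fits both could be assigned to either gene. The first bases of the 2 coding sequences, with that of the skeletal muscle actin Acta1, are printed 5′ to 3′ from GRCm38 (GENCODE vM21, a reference given for this work and not the study's stated build) to show how far the transcripts differ. In Acta2, capitals mark bases where either of the other sequences differs or lacks the base, and in Actg2 and Acta1 capitals mark bases that differ from Acta2. All 3 lie on the minus strand, Acta2 at chr19:34252494-34252553, Actg2 at chr6:83527385-83527441 and Acta1 at chr8:123893638-123893697.
Acta2: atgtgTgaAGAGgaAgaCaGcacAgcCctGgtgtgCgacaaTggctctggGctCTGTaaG
Actg2: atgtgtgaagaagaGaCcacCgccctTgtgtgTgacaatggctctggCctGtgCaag
Acta1: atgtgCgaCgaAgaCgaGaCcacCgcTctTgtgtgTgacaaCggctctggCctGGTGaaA
Actg2 lacked 1 codon (3 bases) in this stretch and had 8 substitutions against Acta2, and Acta1 had 17. Over the whole coding sequence 84.4% of bases of Actg2 and 85.4% of bases of Acta1 were identical to Acta2. Of the 1986 windows of 50 bases in 1 annotated transcript of Acta2, 0 occurred in the transcripts of Actg2, Acta1, Actc1 or Actb, and 7 (0.352%) occurred in that of Actg1. None of the 1284 windows of an Actg2 transcript occurred in another of these actins. Exons of Tagln, Mylk and Notch3 overlap annotated genes on the opposite strand (Gm48529 and Pcsk7, E130310I04Rik and Gm21691, and Gm17276), so their counts are less certain than those of the other 7 genes.

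Divided by the length of its annotated exons, Rgs5 had the highest level of the 10 genes in WT tendons, with 9323 ± 1859 normalized counts per kb (counts scaled by TMM to the mean library size; SD, n = 3). Acta2 followed with 8904 ± 2942 per kb, and the 2 genes overlapped library by library. Tagln had 4403 ± 1496 and Myh11 had 1150 ± 346 normalized counts per kb, each below the gene before it in all 3 libraries. Mylk (491 ± 61.7 per kb), Actg2 (461 ± 197 per kb) and Notch3 (396 ± 71.6 per kb) overlapped one another. Cnn1 (239 ± 103 per kb) and Lmod1 (161 ± 48.3 per kb) also overlapped each other and lay below Notch3. Myocd, which encodes the transcriptional coactivator, was lowest at 12.4 ± 4.71 per kb. In DTRScxLin tendons the order was the same except that Actg2, at 356 ± 287 per kb (SD, n = 3), stood above Mylk, at 350 ± 67.0, and these 2 overlapped there too.

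All 8 contractile genes and both mural markers had a lower fitted level in DTRScxLin than in WT tendons, beside 48.5% of all genes tested, and 0 had a higher one, beside 51.5%. The differences ranged from a log2 fold change of -1.01 for Myocd to -0.16 for Rgs5. The adjusted p was above 0.05 for each of them with edgeR's quasi-likelihood test and Benjamini-Hochberg adjustment, and the test called 0 of 17496 genes (0%). At an unadjusted p under 0.05, 1 of the 10 genes (Mylk) passed, beside 11% of all genes (1918). It was lower, as were 5.45% of all genes, and 0 of the 10 were higher, beside 5.52%. DESeq2 called 0 of the 10 genes and 466 of 17564 genes (2.65%). The 10 genes share libraries and moved together across them, so their shared direction is not 10 separate observations.

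**Figure D1:**
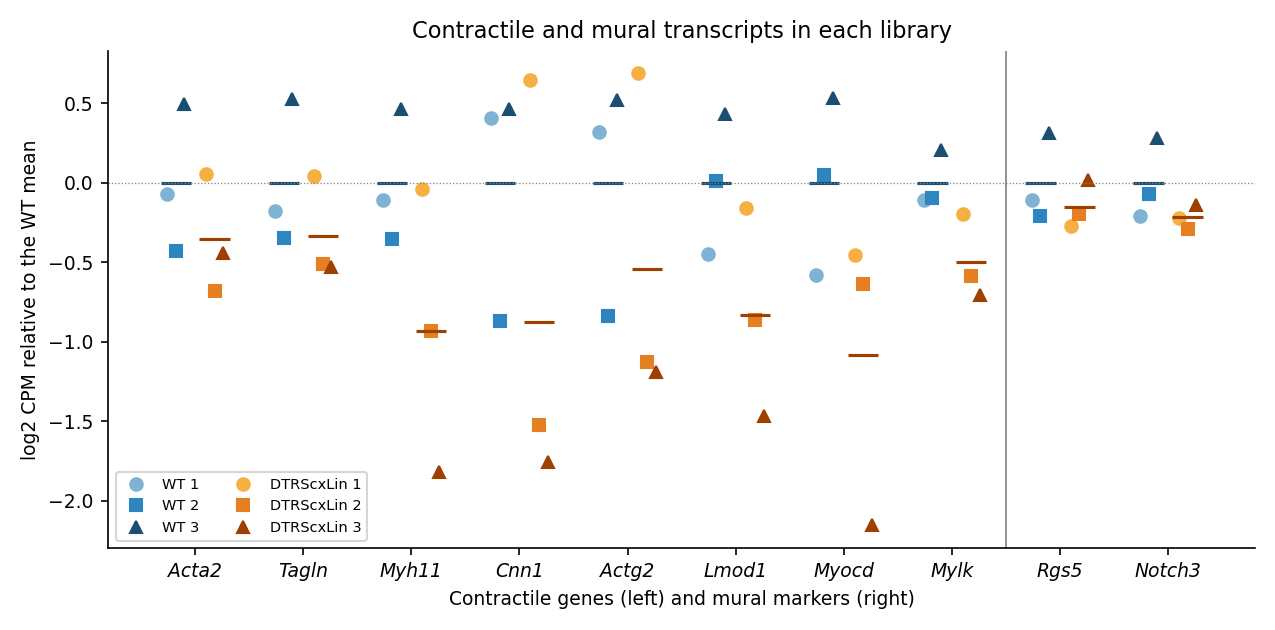
Level of each of the 10 genes in each library, as log2 CPM (counts scaled to a common library total) minus the WT mean of that gene (vertical axis), for WT (blue) and DTRScxLin (orange) replicates 1 to 3, with short lines at group means. DTRScxLin replicate 1 lies above the WT mean for 4 of the 8 contractile genes, and DTRScxLin replicates 2 and 3 lie below the WT mean for all 8.

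In WT replicates 1 to 3, the normalized counts of Acta2 were 17977, 14025 and 26655. In DTRScxLin replicates 1 to 3 they were 19617, 11750 and 13901. The groups overlapped: DTRScxLin replicate 1 lay above 2 of the WT libraries, and DTRScxLin replicates 2 and 3 lay below all of them. The log2 fold change of Acta2 was -0.37 (SE 0.29, 95% interval -1.06 to 0.31), with an adjusted p of 0.640 in edgeR. The interval ran from 0.479 to 1.24 times the WT level. Actg2, the gamma smooth muscle actin, had 828, 370 and 954 normalized counts in WT. It had 1071, 302.3 and 290 in DTRScxLin replicates 1 to 3, so the DTRScxLin libraries held both the highest value and the lowest values. Its log2 fold change was -0.37 (SE 0.69, adjusted p = 0.876 with edgeR), and its SE was more than that of Acta2.

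Tagln encodes transgelin (SM22), an actin-binding protein of smooth muscle and myofibroblasts. Its normalized counts were 7473, 6635 and 12153 in the WT libraries and 8697, 5930 and 5846 in the DTRScxLin libraries. As for Acta2, DTRScxLin replicate 1 was second of the 6 libraries and DTRScxLin replicates 2 and 3 were the lowest 2. The log2 fold change of Tagln was -0.36 (SE 0.28), with an edgeR adjusted p of 0.647. Cnn1 encodes calponin, which binds actin and slows the myosin ATPase. Its normalized counts were 800, 329 and 830 in the WT libraries and 944, 209 and 177 in the DTRScxLin libraries. The highest library of all was again DTRScxLin replicate 1, and the log2 fold change of -0.56 (SE 0.83) had the widest 95% interval of the 10 genes, from -2.71 to 1.596.

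Myh11, the smooth muscle myosin heavy chain, had 7892, 6639 and 11692 normalized counts in WT. It had 8271, 4449 and 2409 in DTRScxLin replicates 1 to 3. DTRScxLin replicate 3 stood below all other libraries and DTRScxLin replicate 1 was second highest. The log2 fold change of Myh11 was -0.79 (SE 0.51, adjusted p = 0.602 with edgeR). Mylk encodes myosin light chain kinase, which switches smooth muscle myosin on in response to calcium and calmodulin. Its normalized counts were 5103, 5145 and 6327 in the WT libraries and 4795, 3665 and 3364 in the DTRScxLin libraries. Mylk was the one contractile gene whose groups did not overlap, with all 3 DTRScxLin libraries below all 3 WT libraries, as were 7.85% of all genes tested. Its log2 fold change was -0.49 (SE 0.15, 95% interval -0.84 to -0.13), a fold of 0.713, with an adjusted p of 0.371 in edgeR and 0.0859 in DESeq2.

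Lmod1 encodes leiomodin, which starts new actin filaments in smooth muscle. Its normalized counts were 451, 619.6 and 832 in the WT libraries and 549, 338 and 221 in the DTRScxLin libraries. Only DTRScxLin replicate 1 lay inside the WT range. The log2 fold change of Lmod1 was -0.78 (SE 0.38, adjusted p = 0.490 with edgeR). Myocd, the SRF coactivator, had normalized counts of 49.7, 78.2 and 110.2 in the WT libraries and 54.6, 47.8 and 15.4 in the DTRScxLin libraries. Its DTRScxLin replicate 3 rested on 15 counts before normalization and its DTRScxLin replicate 1 lay within the WT range. The log2 fold change of Myocd was -1.01 (SE 0.51, 95% interval -2.19 to 0.17, adjusted p = 0.490 with edgeR), the most negative of the 10.

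Rgs5 had 38889, 36236 and 52019 normalized counts in WT. It had 34671, 36448 and 42414 in DTRScxLin replicates 1 to 3. Unlike most contractile genes, Rgs5 was highest among the DTRScxLin libraries in replicate 3 and lowest in replicate 1. Its log2 fold change was -0.16 (SE 0.17, 95% interval -0.56 to 0.23, adjusted p = 0.738 with edgeR). Notch3 had normalized counts of 2743, 3023 and 3856 in the WT libraries and 2723, 2589 and 2884 in the DTRScxLin libraries. DTRScxLin replicate 3 lay inside the WT range and the other DTRScxLin replicates lay just below its lowest value. The log2 fold change of Notch3 was -0.23 (SE 0.13, 95% interval -0.54 to 0.07, adjusted p = 0.528 with edgeR). Several of these values rested on single libraries. Without WT replicate 3, the log2 fold change was -0.09 for Acta2 and -0.05 for Tagln. Leaving out 1 library moved Cnn1 between -1.76 and -0.18 and Actg2 between -1.28 and -0.06, in each case without DTRScxLin replicate 1 and without DTRScxLin replicate 3. The same 2 libraries moved Myh11 between -1.35 and -0.46, Lmod1 between -1.19 and -0.51 and Myocd between -1.32 and -0.63. The direction of Rgs5 rested on WT replicate 3, the library with the highest Rgs5: without it, the log2 fold change was 0.0087.

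**Figure D2:**
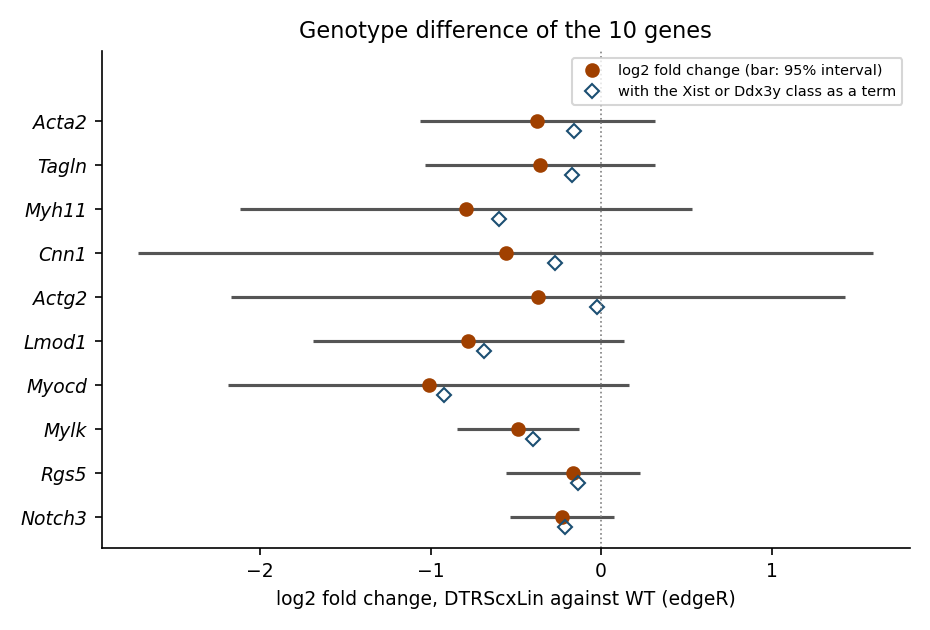
Genotype difference of each gene, as the log2 fold change of DTRScxLin against WT from edgeR (filled circles) with its 95% interval (bars), and the same difference fitted with the Xist or Ddx3y class of the library as a term (open diamonds). Mylk, at -0.49, is the one gene whose interval does not reach 0.

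The contractile genes were next set against the mural markers within each library. The median log2 fold change was -0.52 over the 8 contractile genes and the mean was -0.20 over the 2 mural markers, beside a median of 0.01 over all genes tested. As the mean log2 CPM of the 8 contractile genes minus that of Rgs5 and Notch3, WT replicates 1 to 3 had -2.57, -2.85 and -2.47. DTRScxLin replicates 1 to 3 had -2.31, -3.24 and -3.83. DTRScxLin replicate 1 was thus the highest of the 6 libraries and DTRScxLin replicates 2 and 3 were the lowest. The group means were -2.63 ± 0.20 and -3.13 ± 0.77 (SD, n = 3 each), a difference of -0.50 that was smaller than the SD of the DTRScxLin libraries. Without DTRScxLin replicate 1 this difference was -0.91 and the contractile median was -1.23, and without DTRScxLin replicate 3 they were -0.15 and -0.35.

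**Figure D3:**
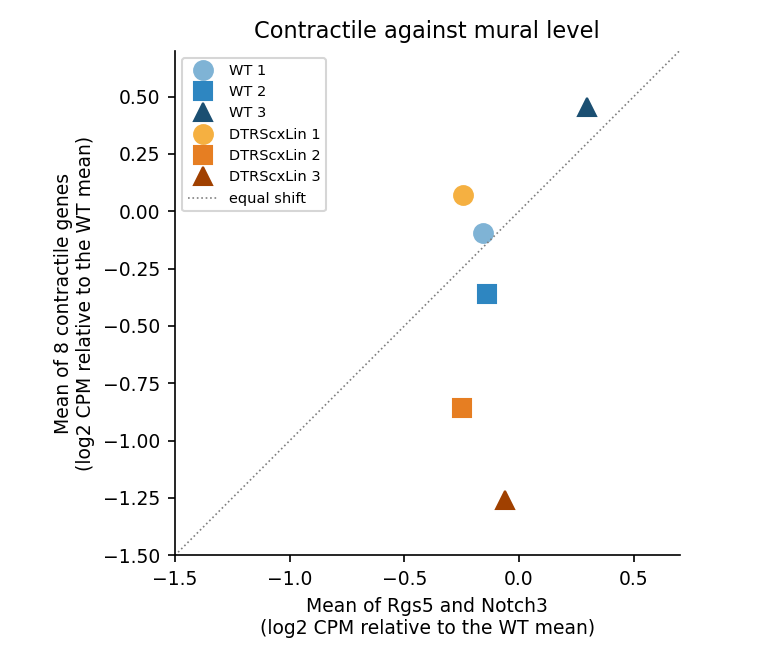
Mean level of the 8 contractile genes (vertical axis) against that of Rgs5 and Notch3 (horizontal axis) in each of the 6 libraries, both as log2 CPM relative to the WT mean; the dotted line marks equal shifts. DTRScxLin replicates 2 and 3 lie at -0.86 and -1.26 on the contractile axis and at -0.25 and -0.06 on the mural axis, below the line, while DTRScxLin replicate 1 lies at 0.07 and -0.25, above it.

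Ratios of raw counts, which do not depend on the normalization, also set DTRScxLin replicate 1 apart from DTRScxLin replicates 2 and 3. The ratio of Acta2 to Rgs5 was 0.462, 0.387 and 0.512 in WT and 0.566, 0.322 and 0.328 in DTRScxLin. The ratio of Myh11 to Rgs5 was 0.203, 0.183 and 0.225 in WT and 0.239, 0.122 and 0.0568 in DTRScxLin. In both ratios DTRScxLin replicate 1 was the highest library and the other 2 DTRScxLin libraries were the lowest. The mural markers kept a narrower ratio to each other, with Rgs5 to Notch3 at 14.2, 11.99 and 13.5 in WT and 12.7, 14.1 and 14.7 in DTRScxLin. The contractile genes did not move as 1 block either. The ratio of Myh11 to Acta2 was 0.439, 0.473 and 0.439 in WT and 0.422, 0.379 and 0.173 in DTRScxLin, so the myosin was lower relative to the actin in all 3 DTRScxLin libraries, by most in replicate 3.

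Across the 6 libraries, which include both genotypes and both Xist and Ddx3y libraries, some pairs of contractile genes followed each other closely. Pearson's r of log2 CPM was 0.988 for Cnn1 and Actg2, 0.969 for Acta2 and Tagln, 0.956 for Lmod1 and Myocd and 0.955 for Lmod1 and Mylk. Rgs5 followed Notch3 with r = 0.865. Between mural and contractile genes, r ran from 0.154 (Rgs5 and Cnn1) to 0.619 (Rgs5 and Acta2) for Rgs5, and from 0.329 (Cnn1) to 0.761 (Tagln) for Notch3. Among 14399 other genes whose normalized counts averaged at least 50, those most like the mean contractile profile were Gm5617 (r = 0.990), Pacsin2 (0.975), Unkl (0.973), Zfp677 (0.973) and Ddx20 (0.971). Those most like the mural profile were Dus1l (0.983), Hdac3 (0.981), Rnf181 (0.980), Higd1b (0.977), a pericyte transcript, and Emcn (0.976), an endothelial sialomucin. These are descriptions over 6 libraries, and they share depth and normalization.

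The division of libraries into those with Xist and those with Ddx3y, which was noticed after the values were seen, moved with the contractile genes. Acta2, Tagln, Myh11, Cnn1 and Actg2 were lower in all 3 Xist libraries than in all 3 Ddx3y libraries, which makes 5 of the 8 contractile genes and 0 of the 2 mural markers, beside 3.33% of all genes tested (6.61% in either direction). Cnn1 had from 177 to 329 normalized counts in the Xist libraries and from 800 to 944 in the Ddx3y libraries. Actg2 had from 290 to 370 and from 828 to 1071. For both genes WT replicate 2 lay with the 2 Xist libraries of DTRScxLin and DTRScxLin replicate 1 lay with the 2 Ddx3y libraries of WT. With genotype and class in 1 edgeR fit, the log2 difference of Xist from Ddx3y libraries was -1.56 (SE 0.16) for Actg2 and -1.80 (SE 0.23) for Cnn1. Their adjusted p-values with edgeR's quasi-likelihood test were 0.0984 and 0.271. They ranked 7 and 9 of the 17496 genes by p, among Xist, Y-linked genes and Kdm6a, and the 5 genes called in that fit (0.0286%) were Xist, Kdm5d, Eif2s3y, Uty and Ddx3y. The same difference was -0.92 (SE 0.34) for Myh11, -0.64 (SE 0.17) for Acta2, -0.56 (SE 0.19) for Tagln, -0.51 (SE 0.35) for Lmod1, -0.40 (SE 0.53) for Myocd, -0.30 (SE 0.12) for Mylk, -0.07 (SE 0.19) for Rgs5 and -0.06 (SE 0.15) for Notch3. The edgeR adjusted p of these 8 genes was at least 0.957.

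**Figure D4:**
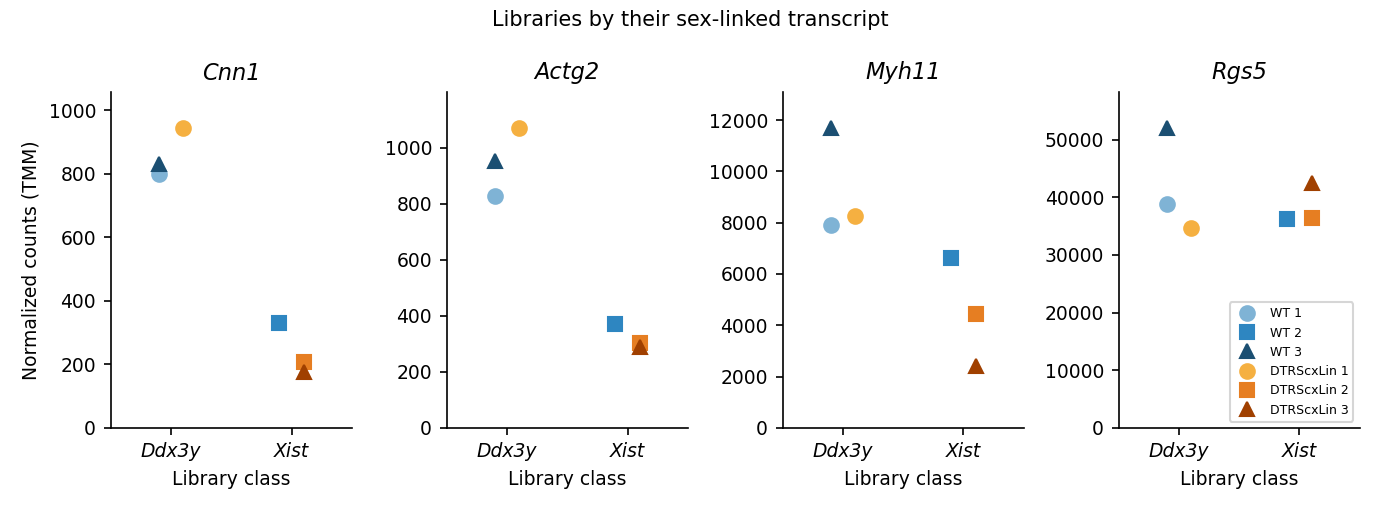
Normalized counts (vertical axes, from 0) of Cnn1, Actg2, Myh11 and Rgs5 in each library, grouped by whether the library held Ddx3y or Xist transcripts, for WT (blue) and DTRScxLin (orange). Cnn1 lies from 800 to 944 in the Ddx3y libraries and from 177 to 329 in the Xist libraries, whereas the 2 classes overlap for Rgs5.

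With the class as a term, the genotype differences of the contractile genes were smaller, with a median log2 fold change of -0.34. Actg2 had -0.02 (SE 0.16), Acta2 had -0.16 (SE 0.17), Tagln had -0.17 (SE 0.19) and Cnn1 had -0.27 (SE 0.22). Myocd (-0.92, SE 0.53), Lmod1 (-0.68, SE 0.35), Myh11 (-0.60, SE 0.34) and Mylk (-0.40, SE 0.12) had the larger differences, and the edgeR adjusted p of Mylk was 0.318. Within the Ddx3y libraries, 2 of WT and 1 of DTRScxLin, the log2 difference between genotypes was -0.22 for Myh11, -0.16 for Lmod1, -0.44 for Myocd and -0.24 for Mylk. Within the Xist libraries, 1 of WT and 2 of DTRScxLin, it was -1.02, -1.18, -1.53 and -0.55 for the same genes. Acta2 (-0.16 and -0.13) and Tagln (-0.13 and -0.17) had close values in the Ddx3y and Xist libraries. The mural markers had -0.38 and 0.12 for Rgs5 and -0.26 and -0.15 for Notch3. Since the class is unevenly divided between genotypes, with 1 library in each of 2 cells, genotype and class can be told apart only in part.

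Other genes of the same machinery were counted from lists. Of 18 other smooth muscle contractile genes, 15 were fitted lower and 3 higher in DTRScxLin, with a median log2 fold change of -0.58, and edgeR called 0. Among those with an unadjusted p under 0.05 and no overlap between groups were Irag1, a substrate of cGMP kinase (-0.59, SE 0.18), and Ppp1r12b, a myosin phosphatase subunit (-0.93, SE 0.31). Their edgeR adjusted p-values were 0.354 and 0.419, and DESeq2 called Ppp1r12b. The 3 genes fitted higher were Smtn (0.06, SE 0.12), Cald1 (0.29, SE 0.16) and Csrp1 (0.04, SE 0.20), and each overlapped between groups. Several genes of this list are also expressed in skeletal muscle, and their library order followed the skeletal muscle markers: Tpm2, Des and Ppp1r12b, with 2634, 5106 and 2406 normalized counts in DTRScxLin replicates 1 to 3, were lowest in DTRScxLin replicates 1 and 3, while Myl9, the smooth muscle myosin light chain, had 7375, 4793 and 4999 normalized counts in DTRScxLin replicates 1 to 3, in the order of Acta2. The 8 contractile genes were lowest in DTRScxLin replicates 2 and 3 instead, where the skeletal muscle markers took 1.95 and 0.528% of counts. The part of muscle tissue in the list's median and in Ppp1r12b was not tested.

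The regulators upstream were fitted in both directions. Of 9 SRF and myocardin regulators, 4 were fitted higher and 5 lower (median -0.01). Srf had 1404 ± 115 normalized counts in WT and 1394 ± 123 in DTRScxLin (SD, n = 3 each). Klf4, which represses contractile genes in smooth muscle, was the 1 gene of this list with an unadjusted p under 0.05, with a log2 fold change of -0.30 (SE 0.10, adjusted p = 0.394 with edgeR).

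The actins and the paralogs of the contractile genes that other cells use gave values in both directions. Among 4 other actins, Actg1, a cytoplasmic actin, was higher in DTRScxLin with no overlap (0.28, SE 0.11, edgeR adjusted p = 0.429), as were 8.96% of all genes. Actb had 0.14 (SE 0.15), Actc1 had 1.57 (SE 0.64), and Acta1 had -0.54 (SE 0.73), and the median of these 4 was 0.21. Of 12 paralogs, 5 were fitted higher and 7 lower (median -0.21), and edgeR called 0. Myh10, a non-muscle myosin heavy chain, had normalized counts of 2561, 2594 and 2838 in the WT libraries and 3880, 3306 and 3157 in the DTRScxLin libraries. Its groups did not overlap and its log2 fold change was 0.37 (SE 0.10, adjusted p = 0.343 with edgeR). Myh9, the other main non-muscle myosin, had 0.26 (SE 0.16) and also no overlap. Its normalized counts were 18173, 17961 and 18301 in the WT libraries and 27240, 18438 and 19512 in the DTRScxLin libraries. DTRScxLin replicate 2 thus lay just above the highest WT library, and DTRScxLin replicate 1 was far the highest. Cnn2 (0.18, SE 0.22) and Cnn3 (0.25, SE 0.17), the calponins of non-muscle cells, and Tagln2 (-0.05, SE 0.11) overlapped between groups. Tagln3 had 0.53 (SE 0.46). Myh14, a further non-muscle myosin, was lower with no overlap (-1.63, SE 0.60, adjusted p = 0.447 with edgeR), as were 7.85% of all genes. It had 105, 431 and 164 normalized counts in DTRScxLin replicates 1 to 3. These were lowest in replicates 1 and 3, as were the skeletal muscle markers, and the part of muscle tissue in Myh14 was not tested. The paralogs of striated muscle were Mylk4 (-2.70, SE 0.95), Mylk2 (-1.44, SE 0.70), Mylk3 (-0.99, SE 0.77), Lmod2 (-0.77, SE 0.67) and Lmod3 (-0.37, SE 0.65), all fitted lower in DTRScxLin, and each of these 5 was lowest in DTRScxLin replicate 1.

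Mural genes beyond Rgs5 and Notch3 were also mostly fitted lower. Of 12 such genes, 11 were fitted lower and 1 higher, with a median log2 fold change of -0.19, and edgeR called 0. Abcc9, the sulphonylurea receptor of pericyte potassium channels, had 4306 ± 339 normalized counts in WT and 2900 ± 587 in DTRScxLin (SD, n = 3 each), with a log2 fold change of -0.57 (SE 0.15, adjusted p = 0.340 with edgeR). Vtn, vitronectin, had -0.63 (SE 0.18, adjusted p = 0.347 with edgeR), and DESeq2 called both Abcc9 and Vtn. Abcc9 had 2238, 3359 and 3103 normalized counts in DTRScxLin replicates 1 to 3. It was lowest in replicate 1, as were both Rgs5 and the skeletal muscle markers, and the part of muscle tissue in Abcc9 was not tested. Kcnj8, another gene of this list, had -0.22 (SE 0.18) and overlapped between groups. Pdgfrb, which fibroblasts also express, had 0.03 (SE 0.15). Of 10 endothelial markers, 9 were fitted lower (median -0.10) and 0 passed an unadjusted p of 0.05. Of 13 other Notch pathway genes, 3 were fitted higher and 10 lower (median -0.06). The ligand Jag1 had a log2 fold change of 0.31 (SE 0.12), the ligands Jag2 and Dll1 had -0.58 (SE 0.13) and -0.39 (SE 0.16), and Nrarp, a feedback target of Notch, had -0.60 (SE 0.19). None of these 4 overlapped between groups, beside 16.8% of all genes tested that did not overlap in either direction. The 4 were named for an unadjusted p under 0.05, which favours groups that do not overlap. Their edgeR adjusted p-values ran from 0.281 to 0.449, and DESeq2 called Jag2.

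Genes of myofibroblasts outside the contractile set were mostly fitted higher. Of 14 such genes, 13 were fitted higher and 1 lower in DTRScxLin, with a median log2 fold change of 0.27, and edgeR and DESeq2 called 0. Fap, a surface protease of activated fibroblasts, had 0.29 (SE 0.10) and no overlap between groups, and Cthrc1, a secreted collagen-associated protein, had 0.51 (SE 0.21). Cdh2, N-cadherin, had 0.50 (SE 0.19), and the 3 were the genes of this list with an unadjusted p under 0.05, with edgeR adjusted p-values from 0.390 to 0.452. DTRScxLin replicate 1, which had the highest contractile level of that group, also had the highest level of this list. The list's mean log2 CPM relative to WT was 0.61, -0.07 and 0.23 in DTRScxLin replicates 1 to 3, and without DTRScxLin replicate 1 the median log2 fold change was 0.08. Of 5 tendon markers, 4 were fitted higher (median 0.30), Scx with 0.39 (SE 0.12) and Kera with 0.43 (SE 0.17). The edgeR adjusted p was 0.371 for Scx and 0.440 for Kera, and Fmod was fitted lower, with -0.17 (SE 0.17). Lists of other cells had larger negative medians, -1.09 for the 12 skeletal muscle markers, -2.94 for the 7 keratinocyte markers and -2.53 for the 5 adipocyte markers, with all 24 genes fitted lower. At an unadjusted p under 0.05 were 0 skeletal muscle, 0 keratinocyte and 5 adipocyte markers, beside 5.45% of all genes that were lower at that p. The groups did not overlap for any of those 5, beside 7.85% of all genes that were lower without overlap. Adipoq had 186 ± 88.5 normalized counts in WT and 35.5 ± 23.6 in DTRScxLin, Plin1 had 101.4 ± 28.9 and 21.1 ± 14.2, and Cfd had 742 ± 402 and 128 ± 68.1 (SD, n = 3 each). Cidec had 66.3 ± 32.1 and 4.85 ± 5.76, and Lep had 19.9 ± 15.2 in WT and from 0 to 3.83 in DTRScxLin. With edgeR their adjusted p-values ran from 0.274 to 0.347, and DESeq2 called 4 of the 5. The part of these tissues in the values of the 10 genes was not tested.

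**Figure D5:**
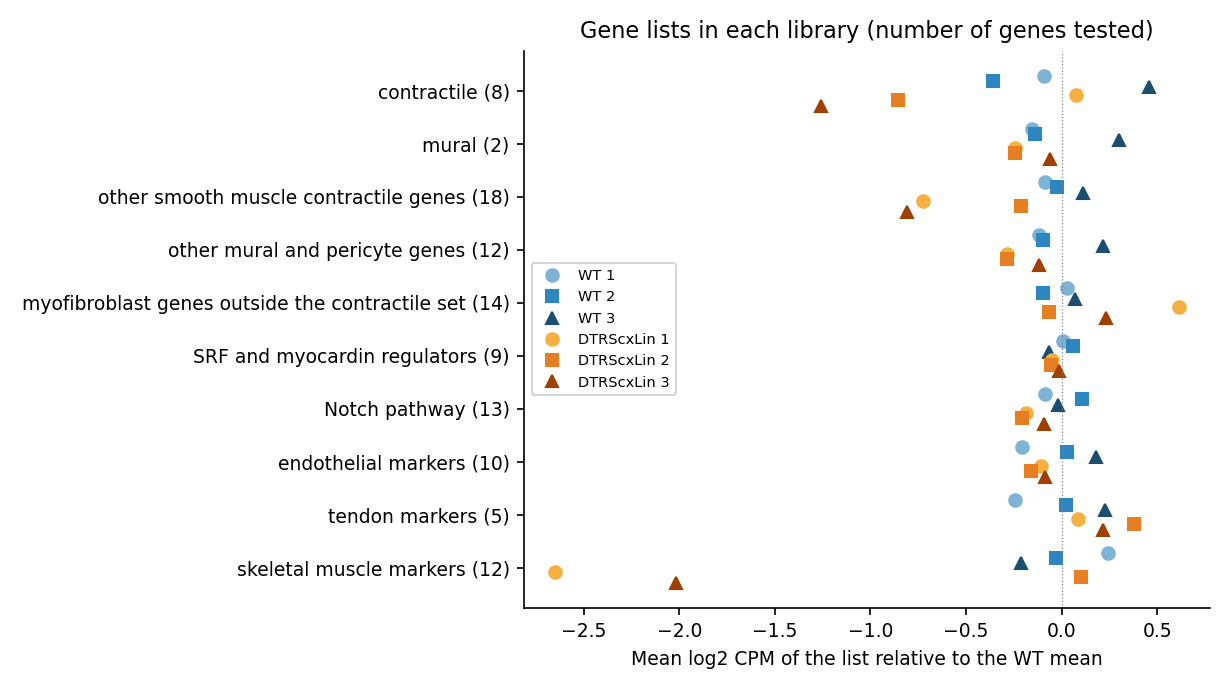
Mean log2 CPM of each gene list relative to its WT mean (horizontal axis) in each library, WT in blue and DTRScxLin in orange, with the number of genes tested in parentheses. DTRScxLin replicates 2 and 3 lie lowest for the contractile genes, at -0.86 and -1.26, and DTRScxLin replicates 1 and 3 lie lowest for the skeletal muscle markers, at -2.65 and -2.02.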

How the data were processed

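FDL tendons of 3 WT and 3 DTRScxLin mice were sequenced, with groups and replicate numbers taken from the labels. The authors counted reads per gene with featureCounts and deposited whole-number counts without normalization. They also deposited a signal table of the same counts divided by a DESeq2 1.22.1 size factor per library. The aligner and genome build were not given in the sources used here.

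In R 4.3.3, edgeR 4.0.16 was applied to the counts: filterByExpr with genotype as group, TMM, a robust quasi-likelihood fit of genotype alone, and Benjamini-Hochberg adjustment over 17496 genes, with a threshold of 0.05. Normalized counts are TMM-normalized at the mean library size. The tests were checked on simulated data. The 10 genes and all lists were chosen with earlier results of these data known, and lists are described by counts and medians. A gene and a list are not reported here. All 10 genes, their paralogs, list genes with an unadjusted p under 0.05 (at most 5 a list) and the 5 genes most like each profile were named. Well-known examples of a list and some list genes that went the other way were named too.

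Alternatives were DESeq2 1.42.0, limma 3.58.1 (voom, and the deposited normalized counts as log2(value + 1)), RLE, library size alone, other filters on low counts, the replicate number as a block and each library left out. A term for Xist or Ddx3y libraries was chosen after seeing the data. Replicates of a group differed by 36.6 to 190 chi-square per degree of freedom, so none was a duplicate. The spread between libraries was thus larger than that of counting alone. Animals and the tissue taken with each tendon both enter this spread, and their parts were not tested. The labels count 1 tendon per sample, and the p-values measure the spread between these samples.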

Additional observations from a re-analysis of the deposited data

Results flagged for a closer look

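The genotype difference of 3 genes had opposite signs in the Ddx3y and the Xist libraries. In each class, every DTRScxLin library lay above, or every one lay below, all WT libraries of that class. For Cnn1 the log2 difference of DTRScxLin from WT was 0.21 in the Ddx3y libraries and -0.78 in the Xist libraries, a gap of -0.987. For Actg2 it was 0.27 and -0.32, a gap of -0.591. For Rgs5 the signs were the other way, -0.38 and 0.12, a gap of 0.493. In the Xist libraries, Rgs5 in DTRScxLin replicate 2 (36448 normalized counts) was close to WT replicate 2 (36236). The positive value thus rested mainly on DTRScxLin replicate 3 (42414). Each class held 1 library of one genotype, and the difference between classes was not tested. With so few libraries, such an order can often arise without any effect. The share of all genes that met this rule was not counted, so these genes are not shown to be unusual.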

How the results depend on the processing

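The 8 contractile genes were fitted lower in DTRScxLin in each of the 15 alternatives, and 0 of the 10 genes were called in any of them. The adjusted p of Mylk, the smallest of the 10 with edgeR, ran from 0.0859 (DESeq2) to 0.838 (without WT replicate 2). Over all genes, 466 were called with DESeq2 and 83 without a filter on low counts, and between 0 and 544 with 1 library left out, the 544 without DTRScxLin replicate 2. Leaving out 1 library moved the contractile median between -1.23 (without DTRScxLin replicate 1) and -0.35 (without DTRScxLin replicate 3), and the contractile minus mural difference between -0.91 and -0.15 for the same libraries. Rgs5 ran from -0.26 (without WT replicate 2) to 0.0087 (without WT replicate 3), where it reversed, and the cause was not tested. With the replicate number as a block, 1 gene, not among the 10, was called and no gene of the 10 changed call. The contractile minus mural difference, -0.50, could not change with this block, since each number held 1 library of each group. Deviations from the group means correlated at -0.19, -0.15 and -0.68 between libraries of the same number. None of these was positive, but 3 libraries a group are too few to exclude that the numbers paired the samples. With the Xist or Ddx3y class as a term, added after seeing the data, the contractile median was -0.34 and 0 genes were called for genotype. With 3 tendons a group, the log2 intervals of Cnn1, Actg2, Myh11 and Myocd were each wider than 2 log2 units.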
